A study of Mus musculus with 8 samples.

Results

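The 10 genes described here encode parts of the contractile apparatus that smooth muscle and stromal cells share (Acta2, Myl9, Tpm1, Tpm2, Tagln, Cnn1, Cnn2 and Cald1) and the caveolins Cav1 and Cav2, which shape small pits of the plasma membrane. They are 10 of the 55492 genes in the deposited tables and were matched by gene symbol. They were chosen because earlier results of the same comparison, 4-OI against DMSO, had shown them lower, so their fold changes below are a description and carry no test. The 8 RNA libraries come from the mouse melanoma line Yumm5.2, with the strain label C57B/6J, 4 of cells given 4-OI and 4 given the solvent DMSO. The labels call 4-OI a permeable itaconate, known in this field as 4-octyl itaconate, an ester of a metabolite that activated macrophages make. Both groups were cultured for 20 h after the addition and differ, as far as the labels say, in that addition alone. The sources used here do not give the dose or the line's mutations.

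In contractile cells, myosin pulls on actin filaments after its regulatory light chain is phosphorylated, and tropomyosin, caldesmon, calponin and transgelin lie along those filaments and tune the interaction. Many of these genes carry CArG boxes, the sites of serum response factor (SRF), whose partners MRTF-A and MRTF-B enter the nucleus when free actin monomers become scarce. Caveolae are built from caveolin oligomers coated by cavin proteins, and they flatten when the membrane is stretched. Fibroblasts and mesenchymal tumour cells express both sets of genes without being smooth muscle.

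Every member was lower with 4-OI. The largest differences were those of Cav1, Acta2, Tagln, Cnn1 and Myl9, with log2 fold changes from -0.70 to -0.47, and the smallest was that of Cald1, at -0.12. The median over the 10 was -0.40, beside 0.00 over all 13531 genes tested. All 10 passed the filter on low counts, with a lowest count of 158 in any library. By edgeR's quasi-likelihood test, with calls at an adjusted p under 0.05 over all tested genes, all 10 were called lower, where 19.6% of the tested genes were called lower and 19.3% higher. In all 10, every 4-OI library lay below every DMSO library in CPM (counts scaled to library size), as in 18% of the tested genes. In TPM, defined below, Cnn1 overlapped, with a highest 4-OI library of 11.79 TPM and a lowest DMSO library of 11.52 TPM. The members were selected on this comparison, so these counts restate the selection. The summed transcript level of the 10 genes was 4039 ± 30.7 TPM with 4-OI and 4920 ± 73.2 TPM with DMSO (SD, n = 4 each). TPM is a share of all transcripts that takes their length into account, and is used here wherever levels of different genes are compared. In RNA from a whole culture, fewer cells that express a gene and less RNA per cell cannot be told apart.

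**Figure D1:**
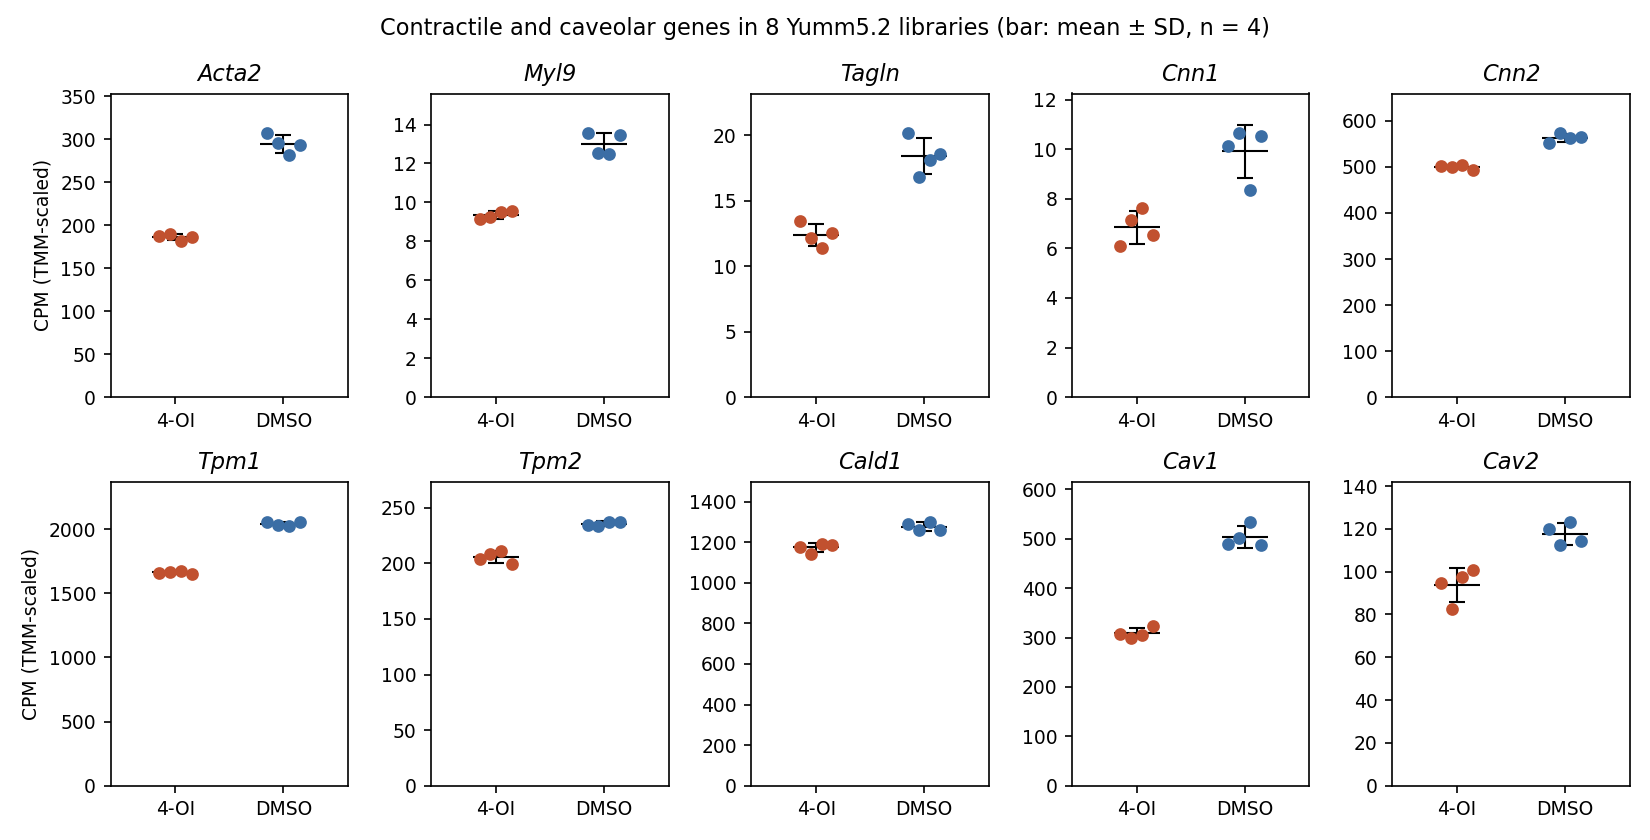
Counts scaled to library size (CPM with TMM factors, linear axes from 0) of the 10 members in each of 4 libraries with 4-OI and 4 with DMSO; points are libraries and bars give mean ± SD. In all 10 panels every 4-OI point lies below every DMSO point; relative to the level, the gaps are widest for Acta2 and Cav1 and narrowest for Cald1.

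Stretches of promoter are shown for 5 members, as examples of those with matches to the motifs searched. Tpm1 and Cald1 also carry matches and are not shown. The stretches are RefSeq sequences of GRCm38.p6, each running 5′ to 3′ from 250 bases before to 50 bases after an annotated start. Capitals mark every match to 1 of 5 motifs on either strand. These were the CArG box (CC, 6 bases that are A or T, then GG), GGAATG (bound by TEAD factors), TGACNNNGC (the core of the antioxidant response element), TGANTCA (AP-1) and TATAAA. No 2 of the matches in the members overlap. The windows lie at chr19:34255324-34255623 on the minus strand for Acta2, and on the plus strand at chr2:156775214-156775513 for Myl9, chr10:79988350-79988649 for Cnn2, chr6:17306085-17306384 for the first start of Cav1 and chr6:17280935-17281234 for Cav2.
Acta2: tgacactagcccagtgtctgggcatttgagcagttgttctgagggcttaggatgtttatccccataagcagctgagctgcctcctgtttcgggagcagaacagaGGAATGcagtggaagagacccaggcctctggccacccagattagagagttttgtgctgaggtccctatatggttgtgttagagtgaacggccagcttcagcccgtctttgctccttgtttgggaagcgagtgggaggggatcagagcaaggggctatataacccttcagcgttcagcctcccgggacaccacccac
Myl9: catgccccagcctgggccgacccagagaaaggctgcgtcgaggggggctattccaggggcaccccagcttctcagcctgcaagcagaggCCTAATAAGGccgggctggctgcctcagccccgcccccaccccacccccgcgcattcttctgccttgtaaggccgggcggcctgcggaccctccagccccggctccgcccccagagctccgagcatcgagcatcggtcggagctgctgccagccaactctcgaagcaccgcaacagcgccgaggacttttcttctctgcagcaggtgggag
Cnn2: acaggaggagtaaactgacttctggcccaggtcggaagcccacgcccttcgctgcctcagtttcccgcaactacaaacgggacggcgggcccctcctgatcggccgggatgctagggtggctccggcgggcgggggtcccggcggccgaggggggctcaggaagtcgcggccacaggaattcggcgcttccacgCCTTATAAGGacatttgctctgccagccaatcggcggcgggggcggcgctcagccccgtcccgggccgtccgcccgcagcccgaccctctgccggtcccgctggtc
Cav1: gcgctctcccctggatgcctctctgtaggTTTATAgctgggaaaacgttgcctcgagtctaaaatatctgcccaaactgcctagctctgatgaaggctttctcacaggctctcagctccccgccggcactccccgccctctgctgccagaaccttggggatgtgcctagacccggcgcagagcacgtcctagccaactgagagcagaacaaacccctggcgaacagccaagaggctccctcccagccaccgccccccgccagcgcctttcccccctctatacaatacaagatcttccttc
Cav2: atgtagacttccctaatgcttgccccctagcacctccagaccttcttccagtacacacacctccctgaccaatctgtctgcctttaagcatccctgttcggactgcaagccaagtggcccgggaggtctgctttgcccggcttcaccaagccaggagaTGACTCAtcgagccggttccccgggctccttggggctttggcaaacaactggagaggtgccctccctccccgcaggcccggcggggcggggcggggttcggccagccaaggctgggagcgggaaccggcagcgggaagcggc

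A promoter window was found for 9 of the 10 members, 11 windows in all, and Tagln was not among them. Exact CArG boxes stood in the windows of Myl9, at bases -161 to -152, and Cnn2, at -56 to -47, counted from the start. This motif was in 1.63% of all 32851 RefSeq windows of that length. GGAATG stood in those of Acta2, Tpm1 and Cald1, and in 14.7% of all windows. TGANTCA stood in those of Cav2 and of the second start of Cald1, with a background of 7.81%, and TATAAA in the first Cav1 window, on the minus strand, and in the second Cald1 window, with a background of 13.6%. TGACNNNGC was in none of the 11 windows and in 12.4% of all windows. A match describes letters in a window and not a bound site, and a missing match says only that these letters are not there. Only exact matches were counted, so near matches to a CArG box, such as ccctatatgg in the Acta2 window, are not among them.

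Acta2, the alpha actin of smooth muscle (ENSMUSG00000035783, GRCm38 chr19:34241090-34255590, minus strand), had 188, 190.1, 182 and 186 CPM in the 4-OI libraries, against 307, 295, 282 and 294 CPM in the DMSO libraries. The libraries of each group lie close together and the groups are far apart. The means were 186 ± 3.50 CPM with 4-OI and 294 ± 10.3 CPM with DMSO (SD, n = 4 each), a log2 fold change of -0.66 (SE 0.03). Acta2 supplied only a small part of the actin transcripts. It made up 2.85 ± 0.109% of the TPM of 6 actin genes with 4-OI and 3.94 ± 0.117% with DMSO (SD, n = 4 each). Actb, the main cytoplasmic actin, held 63.6 ± 0.320% with 4-OI and 65.1 ± 0.680% with DMSO, and Actg1, the other cytoplasmic actin, held 33.4 ± 0.355% with 4-OI and 30.9 ± 0.746% with DMSO. Actin coding sequences are closely alike and Actb has processed pseudogenes, so the division of reads among actin genes is less certain than their sum.

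Myl9, a regulatory light chain of smooth muscle and non-muscle myosin (ENSMUSG00000067818, chr2:156775420-156781658, plus strand), had 9.16, 9.25, 9.52 and 9.59 CPM with 4-OI, against 13.6, 12.5, 12.5 and 13.5 CPM with DMSO. The 4-OI libraries were nearly level and lay below the lowest DMSO library. The log2 fold change was -0.47 (SE 0.06). Most regulatory light chain transcripts came from another gene, Myl12a, which held 90.7 ± 0.946% of the TPM of Myl9, Myl12a and Myl12b with 4-OI and 90.5 ± 0.784% with DMSO (SD, n = 4 each). Myl9 held 1.91 ± 0.178% with 4-OI and 2.35 ± 0.190% with DMSO.

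Tpm1 and Tpm2 encode tropomyosins, coiled coils that lie in the groove of the actin filament. Tpm1 (ENSMUSG00000032366, chr9:67022590-67049406, minus strand) was the most abundant member, with 1657, 1668, 1676 and 1654 CPM in the 4-OI libraries, against 2058, 2031, 2025 and 2052 CPM in the DMSO libraries. The spread within either group is a small fraction of the gap between them, and the log2 fold change was -0.30 (SE 0.02). Tpm2 (ENSMUSG00000028464, chr4:43514711-43523765, minus strand) had 204, 208, 211 and 199.8 CPM with 4-OI, against 235, 233, 238 and 237 CPM with DMSO, a log2 fold change of -0.20 (SE 0.02). The share of Tpm1 in the tropomyosin TPM was 42.5 ± 0.523% with 4-OI and 45.5 ± 0.403% with DMSO (SD, n = 4 each). That of Tpm2 was alike in both groups, at 7.19 ± 0.211% with 4-OI and 7.18 ± 0.183% with DMSO. Tpm3, a tropomyosin found in most non-muscle cells, held 28.8 ± 0.534% with 4-OI and 26.1 ± 0.414% with DMSO.

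Tagln, or SM22, an actin-binding protein abundant in smooth muscle (ENSMUSG00000032085, chr9:45929619-45936058, minus strand), had 13.4, 12.1, 11.4 and 12.5 CPM with 4-OI, against 20.1, 16.8, 18.1 and 18.6 CPM with DMSO. The groups do not overlap although each spreads more than for the abundant members, and the log2 fold change was -0.58 (SE 0.06). Tagln shares 108 bases with Pcsk7 on the other strand and 3627 with the antisense gene Gm48529. Gm48529 had 12 to 34 counts per library, and Pcsk7 was not called (log2 fold change 0.10, with an adjusted p of 0.161 by edgeR). Since no source used here states whether counting used strand, reads of the shared stretches cannot be assigned with certainty. Cnn1, basic calponin, an inhibitor of the actomyosin ATPase (ENSMUSG00000001349, chr9:22099216-22109630, plus strand), had 6.11, 7.16, 7.62 and 6.54 CPM with 4-OI, against 10.1, 10.65, 8.34 and 10.5 CPM with DMSO. The DMSO library of replicate 3 lay nearest to the 4-OI libraries, and the log2 fold change of -0.54 had the largest standard error of the members (0.09). Cnn2, the calponin of non-muscle cells (ENSMUSG00000004665, chr10:79988584-79996062, plus strand), had 502, 500.3, 505 and 494 CPM with 4-OI, against 552, 573, 562 and 564 CPM with DMSO, a log2 fold change of -0.17 (SE 0.02). The 2 calponins and Tagln thus lay at very different levels, with 362 ± 5.29 TPM for Cnn2, 13.2 ± 1.05 TPM for Tagln and 9.62 ± 1.49 TPM for Cnn1 with 4-OI, against 409.6 ± 7.52, 19.5 ± 1.48 and 14.1 ± 1.72 TPM with DMSO (SD, n = 4 each).

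Cald1, caldesmon, which blocks myosin binding to actin until calcium or phosphorylation releases it (ENSMUSG00000029761, chr6:34598500-34775473, plus strand), had 1177, 1144, 1191 and 1188 CPM with 4-OI, against 1288, 1258, 1302 and 1260.2 CPM with DMSO. The groups do not overlap, but the gap between them is small beside the level, and the log2 fold change was -0.12 (SE 0.02). Of all tested genes, 24.5% had a fold change as low or lower, whereas 2.29% did for Cav1.

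Cav1, the main structural protein of caveolae (ENSMUSG00000007655, chr6:17306335-17341452, plus strand), had 308, 299.5, 306 and 323 CPM in the 4-OI libraries, against 489, 502, 535 and 488 CPM in the DMSO libraries. No library of either group came near the other group. The means were 309 ± 9.78 CPM with 4-OI and 503 ± 21.9 CPM with DMSO (SD, n = 4 each), a log2 fold change of -0.70 (SE 0.03), so that Cav1 fell by 38.6%. Cav2, which forms mixed oligomers with caveolin-1 and needs it to reach the membrane (ENSMUSG00000000058, chr6:17281185-17289115, plus strand), had 94.5, 82.4, 97.3 and 100.6 CPM with 4-OI, against 120.1, 113, 123 and 114 CPM with DMSO. The 4-OI library of replicate 2 was the lowest, and the log2 fold change was -0.33 (SE 0.05). The ratio of Cav1 to Cav2 was 6.33 ± 0.467 in TPM with 4-OI and 8.09 ± 0.363 with DMSO (SD, n = 4 each). Cav3, the muscle caveolin, had a count of 0 in all 8 libraries. The antisense gene Gm15581 spans both caveolins and had 0 to 3 counts per library.

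Cav2 and Cav1 are neighbours on chromosome 6, with 17219 bases between the end of Cav2 and the start of Cav1. The genes on either side were also lower, by smaller amounts. Tes, which encodes the adhesion protein testin, had 194 ± 3.19 CPM with 4-OI and 216 ± 2.80 CPM with DMSO (SD, n = 4 each), a log2 fold change of -0.16 (adjusted p = 1.51e-05, edgeR). Met, the receptor of hepatocyte growth factor, had 163 ± 3.46 CPM with 4-OI and 191 ± 1.77 CPM with DMSO, a log2 fold change of -0.23 (adjusted p = 1.76e-07, edgeR).

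**Figure D2:**
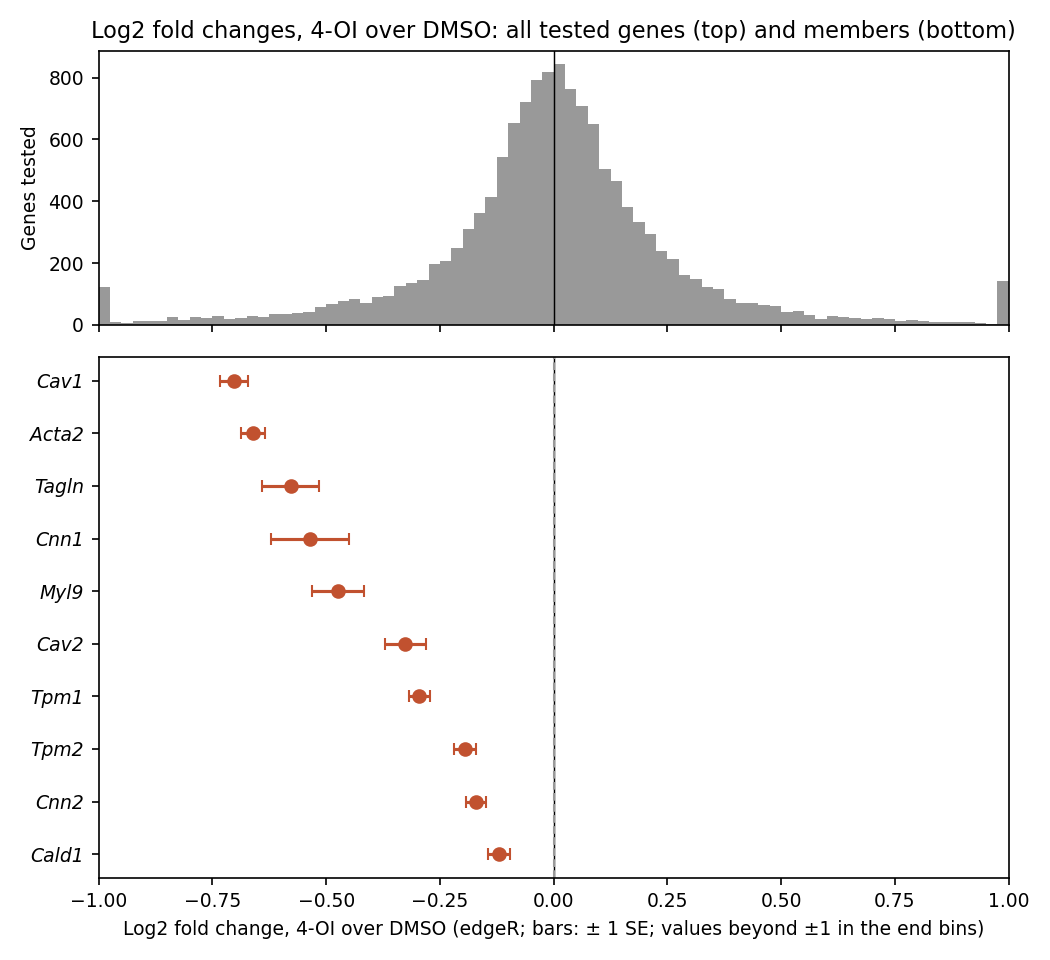
Top, histogram of the log2 fold changes (4-OI over DMSO, edgeR) of all 13531 tested genes, with values beyond ±1 placed in the end bins; bottom, the 10 members with ± 1 SE, ordered by size. The members run from -0.70 for Cav1 to -0.12 for Cald1, all left of 0, while the histogram is centred on 0.00.

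In TPM, the order of the members was nearly the same in both groups. With 4-OI it ran Tpm1, Cald1, Cnn2, Cav1, Tpm2, Acta2, Cav2, Myl9, Tagln and Cnn1, and the libraries of each gene were apart from those of the next. With DMSO, Cav1 stood above Cnn2, at 545 ± 21.8 TPM for Cav1 and 409.6 ± 7.52 TPM for Cnn2 (SD, n = 4 each). With 4-OI, Cav1 stood below Cnn2, at 343 ± 10.5 TPM for Cav1 and 362 ± 5.29 TPM for Cnn2. These nearly touched, with a highest Cav1 library of 354.79 TPM and a lowest Cnn2 library of 355.23 TPM. The libraries of Myl9 and Tagln overlapped with DMSO. Tpm1 headed both orders, at 1795 ± 18.8 TPM with 4-OI and 2161 ± 51.1 TPM with DMSO. Cald1 came next, at 966 ± 22.5 TPM with 4-OI and 1066 ± 21.5 TPM with DMSO.

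**Figure D3:**
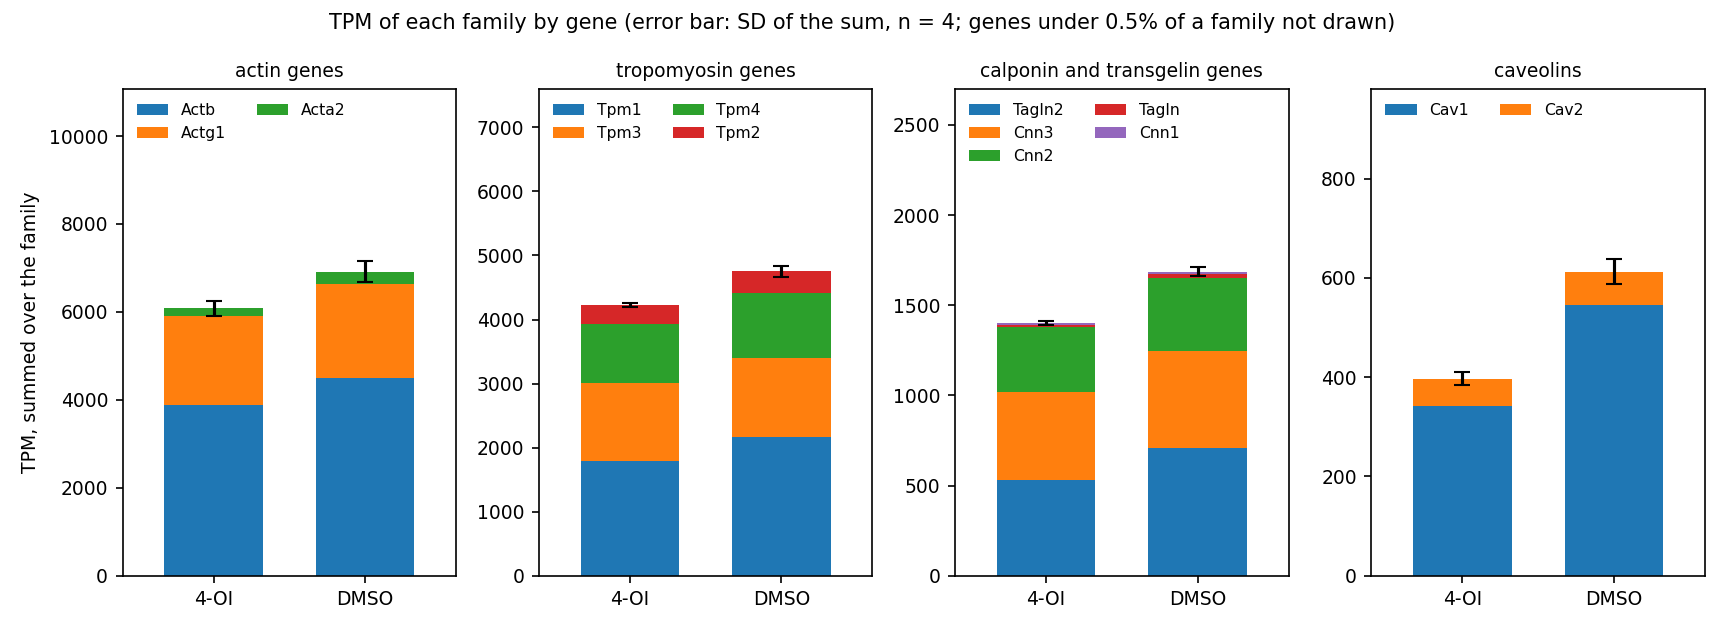
TPM summed over 4 gene families and divided by gene, with 4-OI left of DMSO; bars are means of 4 libraries and the error bar is the SD of the sum. Acta2 is the thin top layer of the actins (2.85% with 4-OI and 3.94% with DMSO), Tpm1 the thick bottom layer of the tropomyosins (42.5% with 4-OI and 45.5% with DMSO).

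Paralogues of the members come from the same fit over all genes. This list and those that follow were drawn up with results of the same comparison known, so their counts and adjusted p are no independent evidence of a direction. Their counts stand beside shares of 19.6% lower and 19.3% higher over all tested genes. Of 9 paralogues tested, 7 were lower, none was higher and 2 were not called, with a median log2 fold change of -0.15. At an unadjusted p under 0.05 edgeR again gave 0 higher, as did DESeq2 after adjustment. Tagln2, a transgelin found outside muscle, had 441 ± 10.2 CPM with 4-OI and 599 ± 7.31 CPM with DMSO (SD, n = 4 each), a log2 fold change of -0.44 (adjusted p = 1.04e-11, edgeR). Actb (-0.19), Tpm4 (-0.16), Cnn3 (-0.15), Myl12a (-0.12) and Actg1 (-0.08) fell by less on the log2 scale. Actg2, the gamma actin of smooth muscle, was scarce, at 3.63 ± 0.134 CPM with 4-OI and 5.51 ± 0.786 CPM with DMSO, a log2 fold change of -0.61 (adjusted p = 0.000104, edgeR). Whether reads of the closely similar Acta2 contribute to this value was not tested. Tpm3 had a log2 fold change of -0.03 (adjusted p = 0.257, edgeR) and Myl12b of 0.09 (adjusted p = 0.183, edgeR). The scarcer Acta1, Actc1 and Tagln3 did not pass the filter.

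Among other caveola genes, 5 of 11 tested were lower, 1 was higher and 5 were not called, with a median log2 fold change of -0.08. Cavin2, a coat protein that helps bend the membrane, had 273 ± 12.7 CPM with 4-OI and 338 ± 3.92 CPM with DMSO (SD, n = 4 each), a log2 fold change of -0.31 (adjusted p = 4.19e-08, edgeR). Cavin1, the coat protein that caveolae need to form, fell by 0.16 and Ehd2, the ATPase at the neck of caveolae, by 0.19 on the log2 scale. Ehd4 and Snx9 each fell by 0.15. Pacsin3, a membrane-bending F-BAR protein, was the member of the list that rose (0.19, with an adjusted p of 0.000908 by edgeR). Cavin3 (-0.08, with an adjusted p of 0.0591 by edgeR), Cavin4 (-0.07), Dnm2 (0.05), Ehd1 (0.03) and Pacsin2 (0.02) were not called. Limma on log2(TPM + 1) did not call Pacsin3 (adjusted p = 0.0778) or Ehd4 (adjusted p = 0.144), and edgeR called Cavin3 lower in 7 other settings. These were the fits without DMSO replicate 1, 4-OI replicate 2 or 4-OI replicate 4 (adjusted p of 0.0109, 0.026 and 0.0451), with a replicate block (0.018), with GC and length offsets (0.0345), with both (0.0109), and over genes at 5 CPM or more (0.0398).

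Smooth muscle genes beyond the members gave a divided picture. Of 13 tested, 5 were lower, 3 were higher and 5 were not called, with a median log2 fold change of -0.09. Smtn, smoothelin, had 56.6 ± 1.58 CPM with 4-OI and 81.4 ± 4.55 CPM with DMSO (SD, n = 4 each), a log2 fold change of -0.52 (adjusted p = 8.06e-10, edgeR). Smtnl2 (-0.76), Actg2 (-0.61), the integrin gene Itga8 (-0.32) and Csrp1 (-0.31) were also lower. Smtnl2 was scarce, at 1.14 ± 0.112 CPM with 4-OI and 1.93 ± 0.499 CPM with DMSO, and its log2 fold change had an SE of 0.20. For Actg2, a contribution of Acta2 reads was not tested, as said above. In the other direction, Mylk, the kinase of the regulatory light chain, rose to 5.46 ± 0.469 CPM with 4-OI, against 3.66 ± 0.257 CPM with DMSO, a log2 fold change of 0.57 (adjusted p = 8.80e-05, edgeR). The actin-bundling gene Synpo2 (0.49) and the matrix gene Npnt (0.42) rose as well. Casq2, Ldb3, Hspb6, Lmod1 and Synm were not called, although Hspb6 was without DMSO replicate 4 or 4-OI replicate 2 (adjusted p of 0.0478 and 0.0495 by edgeR). Limma on log2(TPM + 1) did not call Mylk (adjusted p = 0.0922), Synpo2 (adjusted p = 0.096) or Itga8 (adjusted p = 0.205). The defining genes of differentiated smooth muscle were near the limit of detection, with 0 to 6 counts of Myh11 per library, 1 count of Des and 3 of the co-activator gene Myocd over all 8 libraries, and 0 of Kcnmb1.

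**Figure D4:**
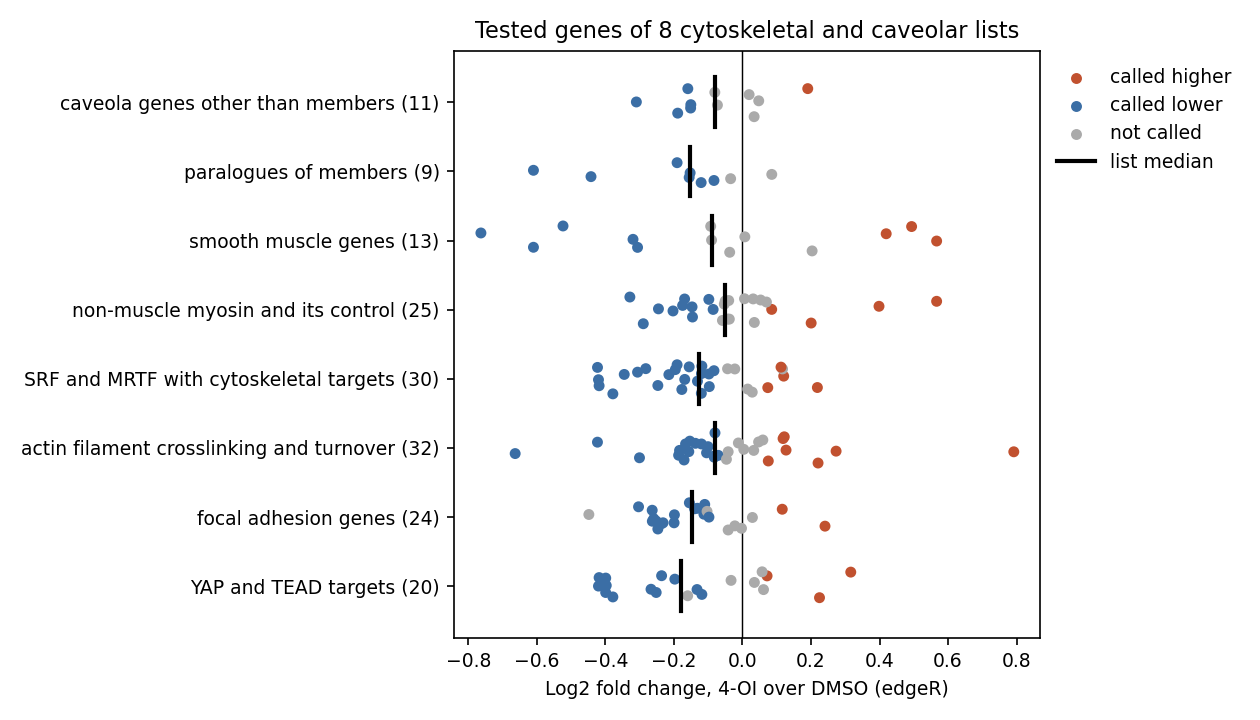
Log2 fold changes (4-OI over DMSO, edgeR) of the tested genes in 8 lists, with the number tested in brackets; each point is a gene, coloured by its call, and black bars are list medians. All 8 medians lie left of 0, from -0.18 for YAP and TEAD targets to -0.05 for non-muscle myosin, and the lists share some genes.

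SRF, its MRTF partners and their cytoskeletal targets, a list that leaves out the members, had 21 of 30 tested genes lower, 4 higher and 5 not called, with a median log2 fold change of -0.13. Ccn2, a matrix signalling protein also known as CTGF, had 168 ± 2.12 CPM with 4-OI and 224 ± 5.28 CPM with DMSO (SD, n = 4 each), a log2 fold change of -0.42 (adjusted p = 3.36e-11, edgeR). The LIM-domain gene Fhl1 (-0.42), the kinase gene Nuak2 (-0.42) and the ankyrin repeat gene Ankrd1 (-0.38) fell by about as much. Srf itself fell by 0.18 (adjusted p = 3.06e-05, edgeR) and Mrtfa by 0.20 (adjusted p = 4.76e-05, edgeR) on the log2 scale, while Mrtfb had a log2 fold change of -0.02 (adjusted p = 0.717, edgeR). Elk1 (0.22), Lima1 (0.12), Pdlim7 (0.11) and Elk3 (0.07) were higher, and Tuft1, Myh9, Pdlim5 and Elk4 were not called, like Mrtfb. Elk1 and Elk3 are SRF partners that compete with MRTF. Leaving out any 1 of DMSO replicates 2, 3 and 4 and 4-OI replicates 2 and 3 ended the call of Elk3 (adjusted p of 0.0552 to 0.103 by edgeR).

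Targets and partners of YAP and TEAD, which also respond to tension on the cytoskeleton, had 12 of 20 tested genes lower, 3 higher and 5 not called, with a median log2 fold change of -0.18. Ccn2, Nuak2 and Ankrd1 stand in this list too. Amotl2, a junction protein that binds YAP, had a log2 fold change of -0.40 (adjusted p = 6.64e-10, edgeR) and the growth factor gene Tgfb2 of -0.40 (adjusted p = 0.000386, edgeR). Tead2 (0.32), F3 (0.22) and Amotl1 (0.07) were higher. Yap1 (-0.03, with an adjusted p of 0.308 by edgeR) and Wwtr1, which encodes TAZ (0.06, with an adjusted p of 0.0601 by edgeR), were not called, nor were Lats2, Tead3 and Tead4, although Tead3 was called without 4-OI replicate 3 (adjusted p of 0.0362 by edgeR). Leaving out any 1 of DMSO replicates 2 and 4 and 4-OI replicates 1 and 3 ended the call of Amotl1 (adjusted p of 0.0597 to 0.0774 by edgeR), and limma on log2(TPM + 1) did not call Tead2 (adjusted p = 0.151) or Tgfb2 (adjusted p = 0.0854).

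Focal adhesion genes, whose products tie actin bundles to integrins, had 16 of 24 tested lower, 2 higher and 6 not called, with a median log2 fold change of -0.15. Ilk (-0.30), Fermt2 (-0.26), Tns3 (-0.26) and Bcar1 (-0.26) fell furthest among the called genes, while Trip6 (0.24) and Lims1 (0.12) rose. Genes of actin crosslinking and turnover had 18 of 32 lower, 7 higher and 7 not called, with a median of -0.08. The formin gene Fhod3 (-0.66) and the crosslinker gene Actn1 (-0.30) were lower. Pfn2, a profilin, rose to 59.1 ± 4.14 CPM with 4-OI, against 34.1 ± 0.727 CPM with DMSO (SD, n = 4 each), a log2 fold change of 0.79 (adjusted p = 2.38e-11, edgeR).

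Non-muscle myosin and its control genes had 10 of 25 tested lower, 4 higher and 11 not called, with a median log2 fold change of -0.05. Myh9, the main non-muscle myosin heavy chain, was not called (-0.04, with an adjusted p of 0.19 by edgeR). Anln (-0.33), Cit (-0.29) and Rnd3 (-0.25) were lower. The first 2 of these work at the contractile ring of dividing cells. Rock2, the kinase that raises light chain phosphorylation, rose to 527 ± 20.7 CPM with 4-OI, against 400 ± 9.36 CPM with DMSO (SD, n = 4 each), a log2 fold change of 0.40 (adjusted p = 7.28e-10, edgeR). Mylk, Arhgef12 (0.20) and Ppp1r12c (0.09) were the other genes of this list that rose, but the call of Ppp1r12c ended with DESeq2 (adjusted p = 0.0864) and when any 1 of DMSO replicates 1, 2 and 4 and 4-OI replicates 3 and 4 was left out (adjusted p of 0.0536 to 0.139 by edgeR). Over the 8 lists together, 148 different genes that are not members were tested, of which 81 were lower and 23 higher. By list, 38.5% to 77.8% of the tested genes were lower and 0% to 23.1% higher. Over all tested genes, 19.6% were lower and 19.3% higher. That background includes scarce genes, which are called less readily. In the fit over the 10067 genes at 5 CPM or more, 2503 were lower and 2309 higher, which are larger shares.

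A measure that the selection did not use is the ratio of a gene's expected count to its TPM. It follows the mean effective length of the transcripts that the authors' software assigned to the gene, and moves when longer or shorter isoforms take over. It was set relative to the median gene of each library and tested with limma over 10386 genes, of which 4 were called (0.0385%). None of the 10 members was called, with adjusted p from 0.881 to 0.999, and 0 of them were under an unadjusted p of 0.05. For Tpm1, with 21 annotated transcripts, the length differed by -1.34% and for Cald1, with 18, by 2.13%. The log2 differences were -0.02 (SE 0.01) for Tpm1 and 0.03 (SE 0.03) for Cald1. The estimates were least precise for Cnn1 and Myl9, and changes that keep the mean length leave no trace in this ratio.

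**Figure D5:**
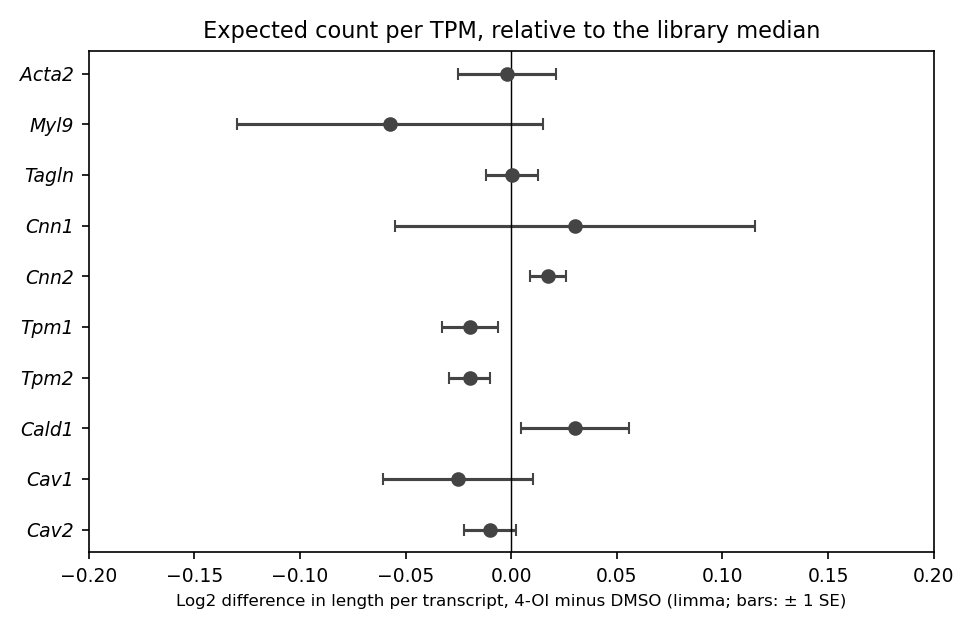
Log2 difference in length per transcript (expected count over TPM, relative to the library median; 4-OI minus DMSO, limma, ± 1 SE) for the 10 members. All 10 estimates lie within 0.06 of 0, and the widest bars are those of Cnn1 and Myl9.

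Within the groups, correlations between members had both signs. Over the 45 pairs of members, the correlation of deviations from the group means across the 8 libraries had a median of -0.12 and a range of -0.79 to 0.94, with 20 pairs above 0. These points share library depth and composition, and the values are a description of 8 libraries. Counting noise, largest for scarce members such as Cnn1, weakens such correlations. They therefore cannot show whether the members vary together. Of 7414 genes at 20 CPM or more, the ones whose deviations were most like the mean deviation of the members were L3mbtl2 (r = 0.99), Polr3f (0.98), Rbm12 (0.95), Cep192 (0.95) and Naa15 (0.94). They are the highest of all those correlations, whose median was 0.01 and 95th percentile 0.69, and were picked for being the highest.

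Total counts ranged from 22962963 to 31361677 per library, and 2607 genes were called higher and 2646 lower. The labels speak of separate experiments without naming separate cultures, and p-values therefore cover the spread between these libraries, which may be technical. The label of a melanoma line was checked against 12 melanocytic genes, of which 11 were under 1 TPM in every library. Mitf, the exception, was also scarce, at 3.45 TPM with 4-OI and 2.285 TPM with DMSO, and was higher with 4-OI (log2 fold change 0.64). The check thus did not establish a melanocytic identity. Of 12 fibroblast markers, which mesenchymal tumour cells can also express, 7 were tested. The matrix genes Dcn, Col1a1, Col1a2 and Col3a1 were lower, Pdgfra and Ly6a were higher, and Pdpn was not called (log2 fold change 0.05). Dcn (0.64 TPM with 4-OI and 1.66 TPM with DMSO) and Col1a1 (1.89 and 4.92 TPM) were scarce. The summed level of the 12 was 795 to 835 TPM with 4-OI and 1030 to 1096 TPM with DMSO, in which Col1a2 alone averaged 471 ± 12.5 TPM with 4-OI and 679 ± 16.1 TPM with DMSO (SD, n = 4 each). Lum had a count of 0 in all libraries, and Dpt, Fap, Thy1 and Pi16 were under 1 TPM. The 10 pericyte and smooth muscle markers summed to 14.7 to 16.5 TPM with 4-OI and 20.6 to 21.7 TPM with DMSO. Most of this sum came from Pdgfrb, at means of 14.1 TPM with 4-OI and 19.5 TPM with DMSO. Of these markers, 4 were tested, Pdgfrb and Mcam were lower, and Higd1b was at 0. Mcam was scarce, at 0.69 ± 0.307 TPM with 4-OI and 0.795 ± 0.164 TPM with DMSO (adjusted p = 0.042, edgeR on counts). The part of either set in the result was not tested. Endothelial markers summed to 9.61 to 12.3 TPM with 4-OI and 7.27 to 10.1 TPM with DMSO, immune markers to 21.7 to 23.9 TPM with 4-OI and 21.1 to 23.4 TPM with DMSO, and keratinocyte markers to 3.30 to 4.64 TPM with 4-OI and 3.23 to 4.30 TPM with DMSO. Most of the endothelial sum came from Egfl7 (means of 10.6 TPM with 4-OI and 8.68 TPM with DMSO). Most of the immune sum came from Cd14 (20.4 and 19.2 TPM) and of the keratinocyte sum from Krt10 (3.66 and 3.23 TPM). Of 10 markers each, 9 endothelial, 8 immune and 9 keratinocyte ones were under 1 TPM in every library. Kdr, Cldn5, Adgre1, Lyz2 and Dsg3 were at 0 in all libraries.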

How the data were processed

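The authors deposited RSEM's expected counts for each gene, whole numbers in every cell here, and TPM values, which take transcript length into account; their FPKM table was not used here. Per the submitters' processing notes the tools were STAR 2.7.8a, RSEM 1.3.3, cutadapt 2.3, MultiQC 1.7 and FastQC 0.11.8, and the build was GRCm38. The annotation release and the strand setting were not given in the sources used here. Positions came from GENCODE M21 and promoters from RefSeq, both on GRCm38.

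Counts were tested with edgeR 4.0.16 in R 4.3.3 (filterByExpr with a minimum count of 10, TMM, two-sided quasi-likelihood F test without covariates). A call means an adjusted p under 0.05 (Benjamini-Hochberg, over all 13531 tested genes). Fold changes, SE and CPM come from this fit. Length per transcript was tested with limma 3.58.1 on genes with a mean count of 100 or more and at least 1 TPM in every library. The members and all gene lists were chosen with earlier results of these data known. Beside the members, the text names up to 4 called genes per list with the largest fold change at 5 CPM or more, the genes that spell out small counts, and the 5 genes most like the members. Some genes that these rules name are left out of the text. Srf, Mrtfa, the genes beside the caveolins and other examples were named with their values known. Alternatives were DESeq2 1.42.0, other scalings and filters, GC and length offsets, limma on log2(TPM + 1) and log2(TPM + 0.1), a replicate block and leaving out each library.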

Additional observations from a re-analysis of the deposited data

Results flagged for a closer look

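None of the members had a library standing apart from its group by Dixon's test. Of 176 groups of 4 libraries tested over the members and other named genes, 4 had such a library, where chance gives about 1 in 20. Lmod1 had 0.744 CPM in 4-OI replicate 2, with 0.425 to 0.449 CPM in the others of that group, and Synm had 0.865 CPM in 4-OI replicate 3, with 0.696 to 0.709 CPM in the others. Tuft1 had 14.8 CPM in DMSO replicate 3, with 13.6 to 13.7 CPM in the others, and Wwtr1 had 288 CPM in DMSO replicate 4, with 301 to 302 CPM in the others.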

How the results depend on the processing

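The 10 members, selected as lower on these libraries, were lower and past the threshold in each of the 18 settings tried, which refit the same libraries and restate that selection. Their log2 fold changes ranged from -0.72 to -0.67 for Cav1, -0.68 to -0.64 for Acta2 and -0.14 to -0.10 for Cald1. Tagln ran from -0.62 to -0.53, Cnn1 from -0.60 to -0.48, Myl9 from -0.49 to -0.39 and Cav2 from -0.37 to -0.27. Tpm1 ran from -0.30 to -0.27, Tpm2 from -0.21 to -0.17 and Cnn2 from -0.18 to -0.15. The smallest falls of Myl9, Tpm1 and Tpm2 came with limma on log2(TPM + 1). With limma on log2(TPM + 1) and log2(TPM + 0.1), the genes called lower numbered 1620 and 1615, and list genes called higher 14 in both; the cause was not tested. Scaling by library totals gave 3020 genes higher and 2323 lower. Deviations of libraries with the same replicate number correlated at 0.30, -0.10, 0.15 and -0.07. They were not set beside those of libraries with different numbers, so they cannot show whether the numbers pair the libraries. A replicate block gave 2526 genes higher and 2618 lower. Of 68 named list genes, 10 lost their call in some setting, among them Amotl1, Elk3 and Ppp1r12c outside the TPM tests, and 5 gained one (Cavin3, Hspb6, Tead3, Tuft1 and Wwtr1). For length per transcript, limma called 0 genes with the replicate block, although 670 were under an unadjusted p of 0.05, and 2 to 5 genes without 1 library each. At 6 to 11 CPM, Cnn1 is the member whose precision depth limits most.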
